A study of Saccharomyces cerevisiae with 6 samples.

Results

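The genes described here are those of the tricarboxylic acid (TCA) cycle, of the entry of pyruvate into it, of the glyoxylate route and acetate activation, and of the retrograde regulators. They are 38 genes of 5379 named on the array, taken from a list of names that was drawn up with earlier results of these data known, so that their counts are a description. Budding yeast (Saccharomyces cerevisiae, strain S288C) in exponential growth in YPD, a rich medium with 2% glucose, at 25 °C was exposed to 12.6 µM zinc pyrithione, an antimicrobial zinc complex, for 2 h. The other group was the same strain under the same conditions, grown for the same 2 h without treatment. Polyadenylated RNA of treated cells carried Cy5 and that of untreated cells Cy3, and both were hybridised to 1 array. The series held 3 such arrays from independent biological samples, and every array was read with the laser at a high and a low setting.

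Every value below is a log2 ratio of treated over untreated cells, so that a negative value means a lower abundance in treated cells, and the mean ± SD is over the 3 arrays. This direction is likely from the dyes of the channels but is not stated with the deposited values. If it ran the other way, each "higher" and "lower" would change places. No array had exchanged dyes, and the compound was dissolved in dimethyl sulfoxide while the controls are labelled as untreated, so that neither the dye nor the solvent can be told apart from the compound. The authors' LOWESS step centres each scan near 0 and hides any shift common to most transcripts. RNA came from whole cultures, so that fewer cells with a transcript and less transcript per cell cannot be told apart.

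All 38 genes had 1 spot and a value on at least 1 array. Of these, 31 had values on all 3 arrays and were tested, 6 had values on 2 arrays and 1 on a single array. High-power scans held values for 4693 to 5737 of the 6912 spots and low-power scans for 1789 to 3372, and 16 of the 38 genes had a low-power value on every array. Where both scans gave a value for a listed gene (64 cases), they differed by a median of 0.2, against 0.21 over all named genes. Only 1 of the 64 differed by more than 1, which was PDB1 on array 1.

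**Figure D1:**
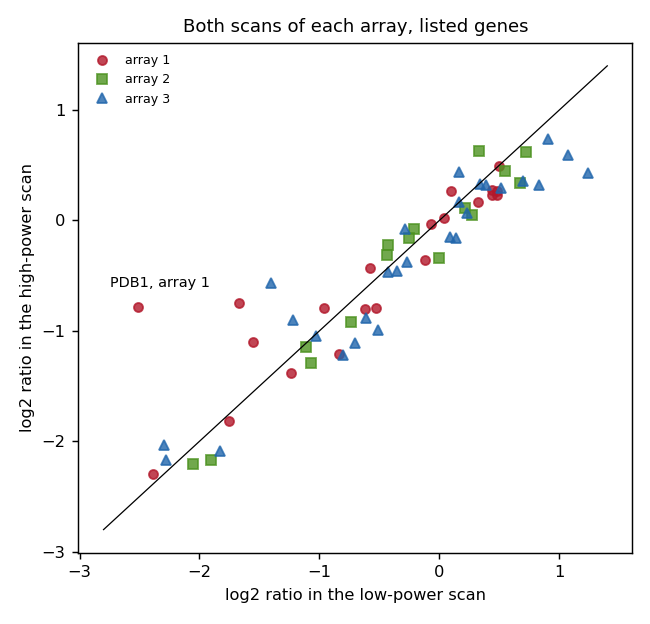
Log2 ratio in the low-power scan (horizontal axis) against the high-power scan (vertical axis) for each listed gene and array with both values, with 1 marker and colour per array and a line of equality. Most points lie near the line, and PDB1 on array 1 lies farthest from it, at -2.51 in the low-power and -0.78 in the high-power scan.

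In the mitochondrion, the pyruvate dehydrogenase complex turns pyruvate into acetyl-CoA, and the TCA cycle oxidises acetyl-CoA and supplies 2-oxoglutarate for glutamate. Aconitase holds an iron-sulfur cluster, and the pyruvate and 2-oxoglutarate dehydrogenase complexes carry lipoate, whose synthesis needs another iron-sulfur enzyme. The glyoxylate route bypasses the decarboxylating steps so that cells can grow on acetate or ethanol, and glucose represses many of its genes. Yeast cells with impaired mitochondria signal to the nucleus through the retrograde pathway, whose best known target is CIT2.

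Of the 31 genes tested, 12 were lower and 0 higher after zinc pyrithione, judged by an adjusted p below 0.05 in limma's linear model, which was fitted across all genes. The share lower was 38.7%, against 9.60% of all 4312 genes tested, while 8.12% of all genes were higher and 17.7% changed in either direction. At an unadjusted limma p under 0.05, 13 of the 31 were lower and 6 higher. The share of all genes at that unadjusted cutoff is not given here. Unadjusted counts, here and below, thus have no background beside them and show no trend by themselves. Against a fold of 1.5 (limma's treat), 4 of the 31 were lower and 0 higher. Over all 4312 genes that fit gave 77 lower and 65 higher. The median of the 31 log2 ratios was -0.44, against 0.03 over all genes, and the values ran from -2.23 to 0.51. Of the 31, 17 were below 0 on all 3 arrays and 8 were above 0 on all 3, where 26.0% of all genes tested were below and 28.9% above. The 4 lowest were CIT2, ACO1, ACH1 and KGD1, of which ACO1 and KGD1 belong to the aconitase and lipoate-dependent steps and CIT2 and ACH1 to the glyoxylate and acetate genes. The number of arrays limits the precision, and the smallest log2 ratio called over all genes had a size of 0.541.

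**Figure D2:**
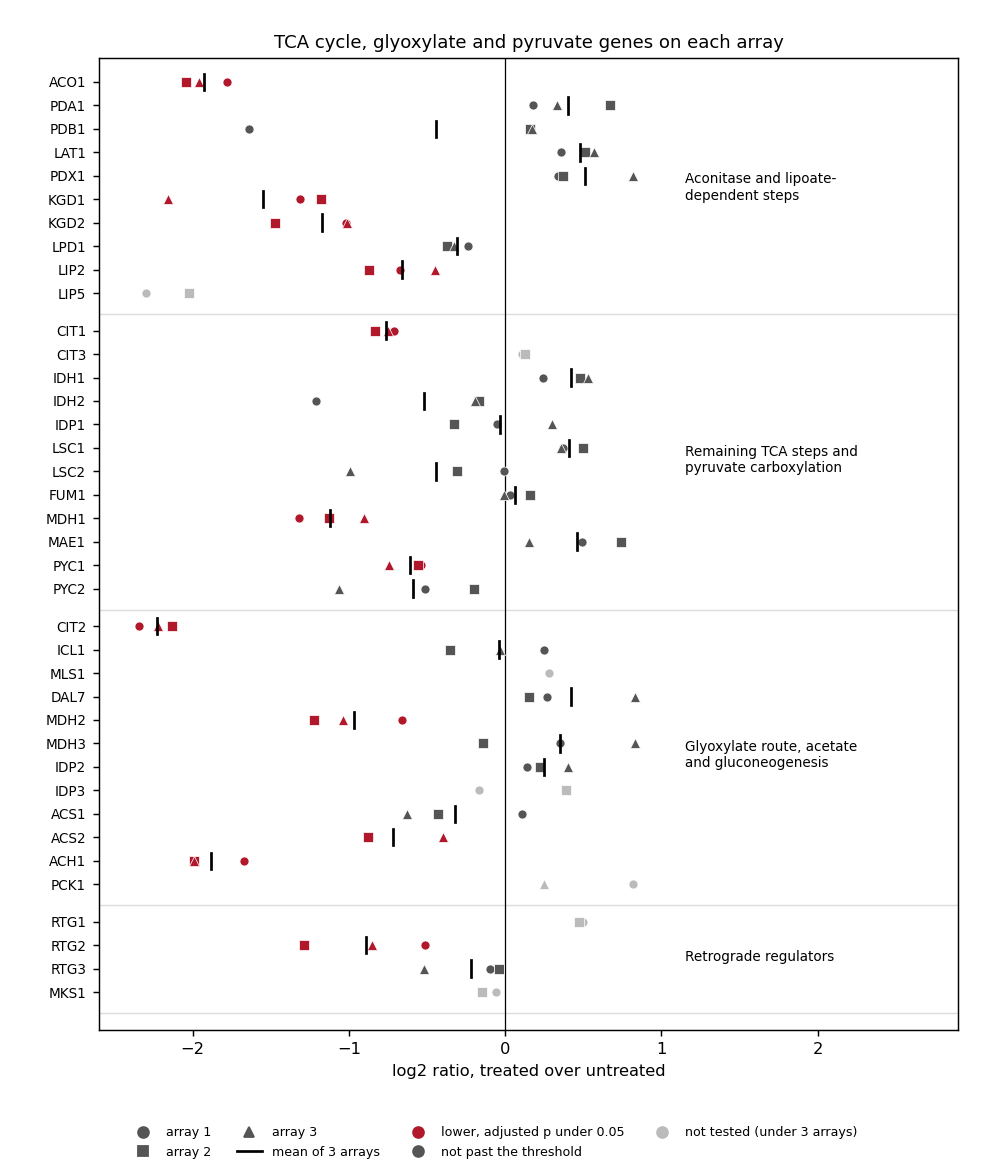
Log2 ratio (horizontal axis) of each of the 38 genes (rows, by role) on each of the 3 arrays, with a marker shape per array, colour by test outcome and a black bar at the mean where all 3 arrays had a value. The red genes, 12 in number, lie to the left of 0 in every group, and most grey ones straddle 0 or lie within about 1 of it.

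**Figure D3:**
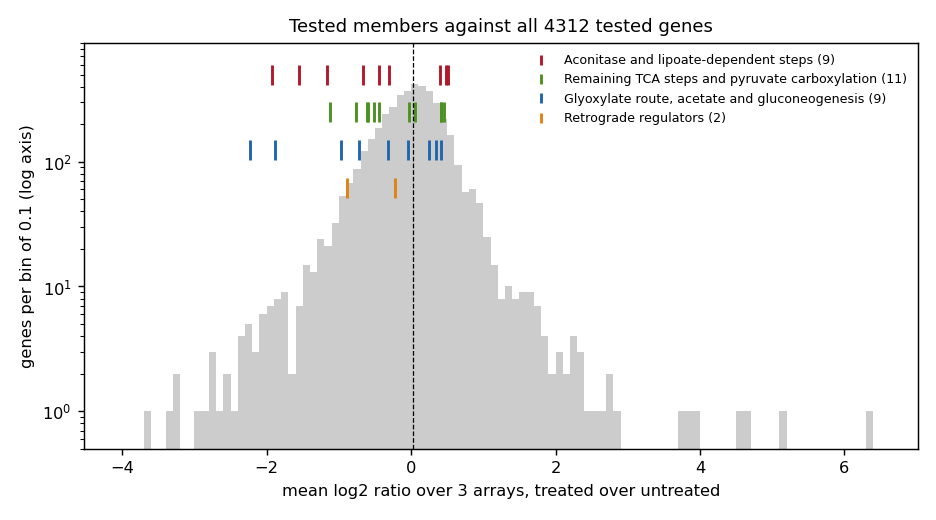
Histogram of mean log2 ratios of all 4312 genes tested (horizontal axis) with the number of genes per bin of 0.1 on a log axis, and ticks for the 31 tested genes in rows by role. The dashed line is the median of all genes (0.03). Ticks reach far into the left tail, to -2.23, but not beyond 0.51 on the right.

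Aconitase and the lipoate-dependent steps came first in the comparison by role. Of 10 genes, 9 were tested, and 4 of these were lower and 0 higher (4 and 3 at an unadjusted limma p under 0.05). The share lower was 44.4%, against 9.60% of all genes tested, of which 8.12% were higher. The group median was -0.44, and it was -0.74 without array 3. ACO1 (YLR304C), the gene of mitochondrial aconitase, stood at -1.78, -2.04 and -1.96 on arrays 1, 2 and 3. All 3 arrays lay within a narrow band, and the mean was -1.93 ± 0.13 (SD, n = 3), a 3.8-fold lower abundance (limma adjusted p = 0.00035). It was the 38th lowest of the 4312 genes tested. LYS4 (YDR234W), which encodes the iron-sulfur enzyme homoaconitase of lysine synthesis, stood at -2.51 on array 1 and -2.90 on array 3 and had no value on array 2. In the fit that admitted genes with 2 arrays LYS4 was lower, at -2.71 (limma adjusted p = 0.00078).

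Both lipoate-bearing dehydrogenase complexes share their last component, and the subunits that belong to 1 complex each are given complex by complex. KGD1 (YIL125W), the first component of the 2-oxoglutarate dehydrogenase complex, stood at -1.31, -1.18 and -2.16 on arrays 1, 2 and 3. Its mean of -1.55 ± 0.53 (SD, n = 3) is a 2.93-fold lower abundance (limma adjusted p = 0.0041). KGD2 (YDR148C), the lipoate-bearing succinyltransferase of the same complex, stood at -1.02, -1.47 and -1.01, with a mean of -1.17 ± 0.26 (SD, n = 3; limma adjusted p = 0.0046). Both genes were below -1 on every array. LPD1 (YFL018C), the dihydrolipoamide dehydrogenase shared by both complexes, stood at -0.24, -0.37 and -0.33. These values lay close together and below 0, but the mean of -0.31 ± 0.07 was not past the threshold (limma adjusted p = 0.19). KGD4, which encodes a small subunit of the 2-oxoglutarate dehydrogenase complex, had a mean of 0.02 ± 0.22 (limma adjusted p = 0.92).

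None of the subunit genes of the pyruvate dehydrogenase complex passed limma's test. At an unadjusted limma p under 0.05 there were 3 higher and 0 lower among its 5 genes. No share of all genes stands beside that count, so it shows no trend by itself. PDA1 (YER178W), the alpha subunit of its first component, stood at 0.18, 0.67 and 0.33, a mean of 0.40 ± 0.25 (limma adjusted p = 0.14). LAT1 (YNL071W), the lipoate-bearing acetyltransferase, stood at 0.36, 0.51 and 0.57, with a mean of 0.48 ± 0.11 (limma adjusted p = 0.068). PDX1 (YGR193C), the protein that binds the shared last component, stood at 0.34, 0.37 and 0.82, with a mean of 0.51 ± 0.27 (limma adjusted p = 0.078). All 3 genes were above 0 on every array, as were 28.9% of all genes tested. KGD1, KGD2 and the shared LPD1 were below 0 on every array, as were 26.0% of all genes tested. PDB1 and KGD4 lay on both sides of 0. LAT1 passed the threshold in the fit limited to genes with both scans on all arrays (0.48, limma adjusted p = 0.0424). Its value was unchanged there, and fewer genes were tested. LAT1 did not pass in the high-power scans alone (0.31, limma adjusted p = 0.13) or with centred blocks of spots (0.3, 0.188). Nor did it pass without array 1, 2 or 3 (limma adjusted p = 0.194, 0.208 and 0.151). PDB1 (YBR221C), the beta subunit of the first component, stood at -1.64 on array 1, against 0.16 and 0.17 on arrays 2 and 3. Its mean of -0.44 ± 1.04 (limma adjusted p = 0.41) rests on array 1, where the scans disagreed, and without that array the mean was 0.16. The 95% interval of LAT1, from 0.12 to 0.84, and that of KGD2, from -1.56 to -0.77, did not overlap. This pair was picked after the values were seen. The interval of PDB1, from -1.26 to 0.38, overlapped that of KGD2. That of KGD4, from -0.36 to 0.41, overlapped that of LAT1. A difference between the complexes was not tested.

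Both genes of lipoate attachment were below 0 wherever they were measured. LIP5 (YOR196C), which encodes lipoyl synthase, an iron-sulfur enzyme, stood at -2.30 on array 1 and -2.02 on array 2, with no value on array 3. It was therefore outside the main test. In the fit that admitted genes with 2 arrays, LIP5 had a mean of -2.16, a 4.46-fold lower abundance (limma adjusted p = 0.0016). LIP2 (YLR239C), which encodes the octanoyltransferase that makes the substrate of lipoyl synthase, stood at -0.67, -0.87 and -0.45, with a mean of -0.66 ± 0.21 (SD, n = 3; limma adjusted p = 0.031). Its call ended without array 1 (adjusted p = 0.142), without array 2 (0.151) and when each block of spots was centred (0.0711). LIP3, a lipoate-attachment gene, was not analysed here.

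The remaining TCA steps, with pyruvate carboxylation and malic enzyme, held 12 genes. Of the 11 tested, 3 were lower and 0 higher (4 and 3 at an unadjusted limma p under 0.05), with a median of -0.44. The share lower was 27.3%, against 9.60% of all genes tested, of which 8.12% were higher. Per-array medians of these 11 were -0.05, -0.2 and -0.19, close to 0. Without array 1 the median of the means was -0.18, and without array 3 it was -0.19. The genes called lower encode citrate synthase, malate dehydrogenase and pyruvate carboxylase. Of their isozyme genes in this group, PYC2 did not pass the test and CIT3 was outside the main test.

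MDH1 (YKL085W), the mitochondrial malate dehydrogenase gene, stood at -1.32, -1.13 and -0.90, and all 3 arrays were clearly below 0. The mean was -1.12 ± 0.21 (SD, n = 3), a 2.17-fold lower abundance (limma adjusted p = 0.0046). CIT1 (YNR001C), the mitochondrial citrate synthase gene, stood at -0.71, -0.83 and -0.75, the tightest triplet of the 12 called genes, with a mean of -0.76 ± 0.06 (limma adjusted p = 0.015). Its call ended in the low-power scans alone (adjusted p = 0.0787), without array 1 (0.0792) and without array 2 (0.0792). PYC1 (YGL062W), which encodes a cytosolic pyruvate carboxylase that replenishes oxaloacetate, stood at -0.54, -0.56 and -0.74, with a mean of -0.61 ± 0.11 (limma adjusted p = 0.033). The call of PYC1 ended when any one array was left out (adjusted p = 0.132, 0.112 and 0.0855 without arrays 1, 2 and 3).

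The other genes of the cycle did not pass the test. IDH1 (YNL037C) and IDH2 (YOR136W) encode the subunits of NAD-dependent isocitrate dehydrogenase. IDH1 stood at 0.24, 0.48 and 0.53, and IDH2 at -1.21, -0.17 and -0.19. IDH2 was thus low on array 1 alone, and the means were 0.42 ± 0.15 for IDH1 and -0.52 ± 0.60 for IDH2 (limma adjusted p = 0.11 and 0.16). LSC1 (YOR142W) and LSC2 (YGR244C), the alpha and beta subunits of succinyl-CoA ligase, had means of 0.41 ± 0.08 and -0.44 ± 0.50 (limma adjusted p = 0.10 and 0.19). LSC2 was lowest on array 3, at -0.99, where its scans differed (-0.57 at high and -1.40 at low power). On arrays 1 and 2 LSC2 had a high-power value alone. FUM1 (YPL262W), the fumarase gene, stayed between -0.01 and 0.16 on the 3 arrays. Its mean was 0.06 ± 0.09 with a 95% interval from -0.29 to 0.42.

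Of the other genes of this group, IDP1 (YDL066W), the mitochondrial NADP-dependent isocitrate dehydrogenase gene, straddled 0, with values from -0.33 to 0.30. MAE1 (YKL029C), the malic enzyme gene, stood at 0.49, 0.74 and 0.15 and was above 0 on all arrays (limma adjusted p = 0.11). PYC2 (YBR218C), the second pyruvate carboxylase gene, had values of -0.51, -0.20 and -1.06, with a mean of -0.59 ± 0.43 (limma adjusted p = 0.079). It passed the threshold when each block of spots was centred (-0.74, adjusted p = 0.0316). CIT3 (YPR001W), which encodes a mitochondrial citrate and methylcitrate synthase, was measured on 2 arrays, at 0.11 and 0.13.

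The step that follows succinyl-CoA ligase, succinate dehydrogenase, had the lowest values of the cycle. Its genes SDH2, SDH3 and SDH4 had means of -3.23 ± 0.19, -3.65 ± 0.17 and -2.98 ± 0.37 (limma adjusted p = 8e-05, 4.5e-05 and 0.00017). SDH1, the flavoprotein subunit gene, stood at -1.67 and -2.40 on arrays 1 and 2 and was lower in the fit that admitted 2 arrays (-2.04, limma adjusted p = 0.0041). Within the cycle the ratios therefore stood, in the order of the steps, at -0.76 for CIT1, -1.93 for ACO1, 0.42 for IDH1 and -0.52 for IDH2, -1.55 for KGD1, -1.17 for KGD2 and -0.31 for LPD1, 0.41 for LSC1 and -0.44 for LSC2, -3.23 for SDH2, 0.06 for FUM1 and -1.12 for MDH1. Genes that fell thus lay beside genes that did not pass the test along the cycle. No gene with a size under 0.541 was called on these arrays, so not passing does not show that a gene was unchanged.

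The glyoxylate route with acetate activation, peroxisomal and cytosolic isozymes and gluconeogenesis also held 12 genes. Of the 9 tested, 4 were lower and 0 higher (4 and 0 at an unadjusted limma p under 0.05), with a median of -0.32. The share lower was 44.4%, against 9.60% of all genes tested, of which 8.12% were higher. The median was -0.53 without array 1, -0.16 without array 3 and -0.045 when genes with 2 arrays were admitted. CIT2 (YCR005C), the gene of peroxisomal citrate synthase and the standard reporter of retrograde signalling, stood at -2.34, -2.13 and -2.22. The values lay close together, and the mean of -2.23 ± 0.11 (SD, n = 3) is a 4.7-fold lower abundance (limma adjusted p = 0.00019). CIT2 was the lowest of the 31 tested genes on the list and the 19th lowest of all genes. ACH1 (YBL015W), which encodes a mitochondrial enzyme that transfers CoA between short acids, stood at -1.67, -1.99 and -1.99. Its mean was -1.88 ± 0.18 (SD, n = 3; limma adjusted p = 0.00044), and it had no low-power value on any array.

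MDH2 (YOL126C), the cytosolic malate dehydrogenase gene of gluconeogenesis, stood at -0.66, -1.22 and -1.04. All arrays were below 0, with a mean of -0.97 ± 0.29 (limma adjusted p = 0.01), and the call ended without array 2 (adjusted p = 0.0658). ACS2 (YLR153C), the acetyl-CoA synthetase gene used on glucose, stood at -0.87, -0.88 and -0.40, with a mean of -0.72 ± 0.27 (limma adjusted p = 0.028). Its call ended without array 1 (adjusted p = 0.158) and without array 2 (0.134). ACS1 (YAL054C), the isozyme repressed by glucose, stood at 0.11, -0.43 and -0.63, so that its arrays fell on both sides of 0 (limma adjusted p = 0.28).

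Isocitrate lyase and malate synthase, the enzymes that define the glyoxylate route, did not pass the test or could not be tested. ICL1 (YER065C), the isocitrate lyase gene, stood at 0.25, -0.35 and -0.03, which straddles 0, with a 95% interval of the mean from -0.45 to 0.36. MLS1 (YNL117W), the malate synthase gene, had a value on array 1 alone, 0.28. DAL7 (YIR031C), which encodes a malate synthase of allantoin breakdown, stood at 0.27, 0.15 and 0.83 (limma adjusted p = 0.16). PCK1 (YKR097W), the gene of phosphoenolpyruvate carboxykinase, which starts gluconeogenesis from oxaloacetate, stood at 0.82 on array 1 and 0.25 on array 3. MDH3 (YDL078C), the peroxisomal malate dehydrogenase gene, stood at 0.35, -0.14 and 0.83, and IDP2 (YLR174W), a cytosolic isocitrate dehydrogenase gene, at 0.14, 0.22 and 0.40. Neither passed the test (limma adjusted p = 0.28 for both), although IDP2 was above 0 on all arrays. IDP3 (YNL009W), the peroxisomal isozyme, had -0.17 and 0.39 on arrays 1 and 2. Spot intensities were not analysed here, so how near these spots were to background is not known.

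The isozyme and subunit pairs were compared within each array. Of 10 pairs, 8 had values on all 3 arrays, and with 3 arrays the exact two-sided sign-flip permutation test cannot give a p below 0.25, so none could pass a threshold. CIT2 was below CIT1 by 1.64, 1.30 and 1.47 on the 3 arrays, a mean difference of -1.47 ± 0.17 (exact p = 0.25, adjusted p = 0.4). MDH3 was above MDH1 on each array, by 1.68, 0.99 and 1.74, with a mean difference of 1.47 ± 0.41 (exact p = 0.25, adjusted p = 0.4). Both differences were several times their SD between arrays. The differences of IDH1 over IDH2 (0.94 ± 0.45), LSC1 over LSC2 (0.85 ± 0.48) and IDP2 over IDP1 (0.28 ± 0.24) also had the same sign on all arrays (exact p = 0.25, adjusted p = 0.4 each). MDH2 against MDH1 (0.15 ± 0.45), PYC1 against PYC2 (-0.02 ± 0.34) and ACS1 against ACS2 (0.40 ± 0.61) changed sign between arrays (exact p = 1, 0.75 and 0.5, adjusted p = 1, 0.857 and 0.667). Related genes can share hybridisation on a cDNA spot, and its part in these ratios was not tested.

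**Figure D4:**
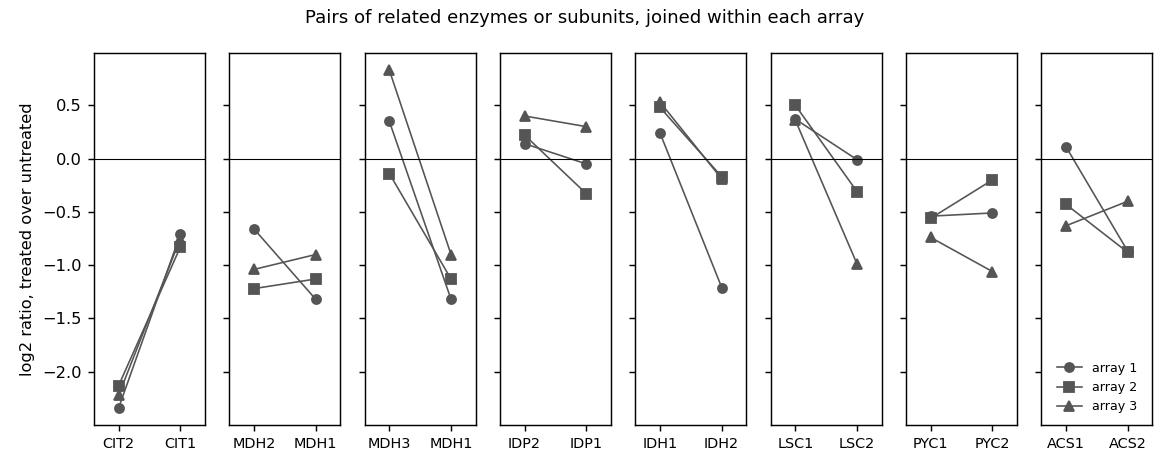
Log2 ratio of treated over untreated cells (vertical axis) for 8 pairs of related genes, with each array's values joined by a line and a marker shape per array. All lines of CIT2 and CIT1 run upward to CIT1, all lines of MDH3 and MDH1 run downward to MDH1, and those of MDH2 with MDH1, PYC1 with PYC2 and ACS1 with ACS2 cross or run both ways.

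Of the 4 retrograde regulators, 2 were tested, and 1 was lower and 0 higher (1 and 0 at an unadjusted limma p under 0.05), with a median of -0.55. That median was -0.16 over all 4 when genes with 2 arrays were admitted. The share lower, 50.0%, rests on 1 gene, against 9.60% of all genes tested. RTG2 (YGL252C), which encodes the sensor protein that relieves inhibition by Mks1, stood at -0.51, -1.29 and -0.85. All arrays were below 0, and the mean was -0.89 ± 0.39 (SD, n = 3), a 1.85-fold lower abundance (limma adjusted p = 0.02). The call ended without array 2 (-0.68, adjusted p = 0.103). None of the 4 regulators had a low-power value on any array. RTG3 (YBL103C), which encodes a subunit of the DNA-binding dimer, stood at -0.10, -0.04 and -0.52 (limma adjusted p = 0.39). RTG1 (YOL067C), the other subunit, was above 0 on its 2 arrays, at 0.50 and 0.47, and MKS1 (YNL076W), the inhibitor, stood at -0.06 and -0.15. In the fit that admitted 2 arrays neither RTG1 nor MKS1 passed the test (limma adjusted p = 0.16 and 0.76).

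Among 7 further genes of retrograde signalling and of propionate use, 6 were tested, and 1 was lower and 0 higher (2 and 0 at an unadjusted limma p under 0.05). The share lower, 16.7%, rests on 1 gene, against 9.60% of all genes tested. LST8 (YNL006W), a component of the TOR complexes that restrains retrograde signalling, stood at -1.16, -1.60 and -0.78, all below 0, with a mean of -1.18 ± 0.41 (limma adjusted p = 0.0075). DLD3 (YEL071W), which encodes a cytosolic 2-hydroxyglutarate transhydrogenase and is a known retrograde target, stood at -0.30, 0.49 and 0.22. It straddled 0. The others were GRR1 (-0.79 ± 0.58), BMH1 (-0.27 ± 0.18), BMH2 (0.31 ± 0.17) and ICL2 (0.11 ± 0.48), and PDH1 was measured on 1 array.

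Transcription regulators of these genes were also read from the arrays. Of 9 genes, 6 were tested, and 2 were lower and 0 higher (2 and 1 at an unadjusted limma p under 0.05). The share lower was 33.3%, against 9.60% of all genes tested. It rests on 2 genes of a list drawn up with earlier results of these data known, so it is a description. HAP4 (YKL109W), the activating and limiting subunit of the complex that drives respiratory genes, stood at -1.60, -1.72 and -1.36, all well below 0. Its mean was -1.56 ± 0.18 (SD, n = 3), a 2.95-fold lower abundance (limma adjusted p = 0.00089). ADR1 (YDR216W), an activator of glucose-repressed genes, stood at -0.72, -1.59 and -1.34, with a mean of -1.22 ± 0.44 (limma adjusted p = 0.0076), and its call ended without array 2 (adjusted p = 0.0507). HAP3, a DNA-binding subunit, stood at -1.55 and -0.96 on 2 arrays and passed in the fit that admitted 2 arrays (-1.25, limma adjusted p = 0.018). HAP5 stood at 0.59 on array 1 and -0.45 on array 3 and did not pass in that fit (0.07, limma adjusted p = 0.89). HAP2 had a mean of -0.15 ± 0.33. MIG1 (0.50 ± 0.21), CAT8 (0.25 ± 0.44) and SNF1 (-0.27 ± 0.13), which act in glucose repression and its release, did not pass the test.

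**Figure D5:**
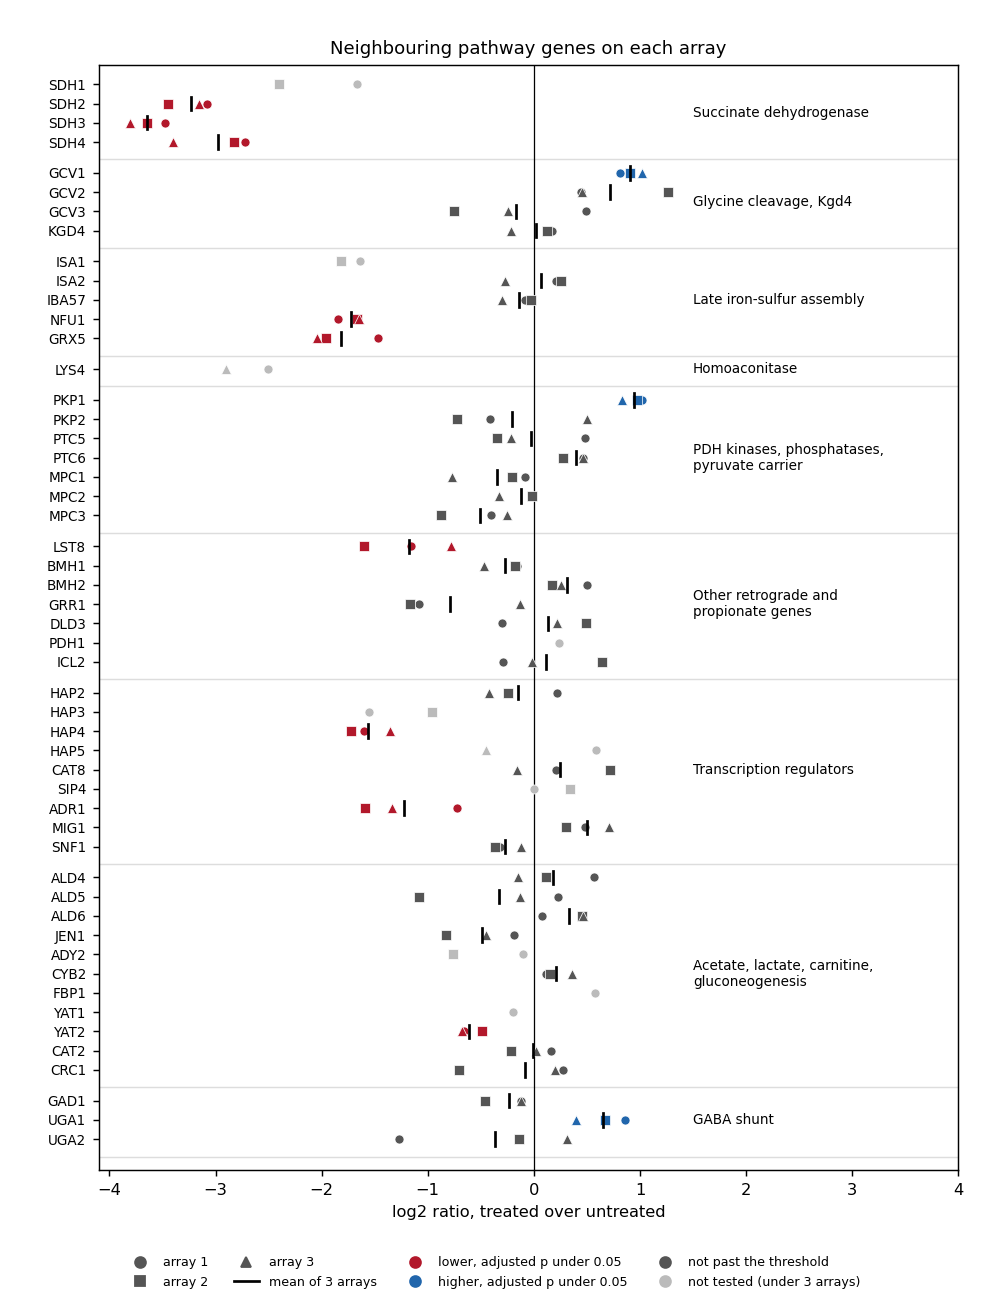
Log2 ratio (horizontal axis) of 51 neighbouring genes in 9 groups on each array, with a marker shape per array, colour by test outcome and a bar at the mean where all 3 arrays had a value. Succinate dehydrogenase genes lie farthest to the left, down to -3.81 on array 3, and the blue genes GCV1, PKP1 and UGA1 lie to the right of 0.

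Iron-sulfur assembly factors that act late in the mitochondrion, on which aconitase and lipoyl synthase depend, had mixed values. Of the 4 tested, 2 were lower: GRX5 at -1.82 ± 0.31 and NFU1 at -1.72 ± 0.11 (limma adjusted p = 0.00072 and 0.00053). NFU1 had no low-power value on any array. The share lower was 50.0%, against 9.60% of all genes tested. This share, too, rests on 2 genes of a list drawn up with earlier results known, and is a description. ISA1, required to mature aconitase, stood at -1.64 and -1.82 on 2 arrays and was lower in the fit that admitted 2 arrays (-1.73, limma adjusted p = 0.0037). Its partners ISA2 (0.07 ± 0.29) and IBA57 (-0.14 ± 0.15) did not pass the test.

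The glycine cleavage system also depends on lipoate, and it shares LPD1, described above, which was below 0 on every array without passing the test. Of its 3 own genes, 1 was higher and 0 lower (2 and 0 at an unadjusted limma p under 0.05). Of all genes tested, 8.12% were higher. GCV1 (YDR019C), the T subunit gene of this system, stood at 0.81, 0.91 and 1.02 and rose to 0.91 ± 0.11 (SD, n = 3; limma adjusted p = 0.008). GCV2 (YMR189W), the decarboxylase subunit gene, stood at 0.44, 1.26 and 0.45 (limma adjusted p = 0.052), and GCV3 (YAL044C), the lipoate-bearing subunit gene, at 0.49, -0.75 and -0.24. GCV3 thus lay on both sides of 0.

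Of 7 genes that gate pyruvate entry, 1 was higher and 0 lower (2 and 1 at an unadjusted limma p under 0.05). The count of higher genes rests on 1 gene, where 8.12% of all genes tested were higher. PKP1 (YIL042C), a kinase gene whose product inactivates the pyruvate dehydrogenase complex, stood at 1.02, 0.97 and 0.83 and rose by a mean of 0.94 ± 0.10, or 1.92-fold (limma adjusted p = 0.0071). The call of PKP1 ended without array 1 (adjusted p = 0.0578). Its partner kinase gene PKP2 (-0.21 ± 0.63), the phosphatase genes PTC5 (-0.03 ± 0.45) and PTC6 (0.40 ± 0.11), and the carrier genes MPC1 (-0.35 ± 0.37), MPC2 (-0.12 ± 0.18) and MPC3 (-0.51 ± 0.33) did not pass the test.

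In acetate, lactate and carnitine metabolism, 8 of 12 genes were tested, and 1 was lower and 0 higher (2 and 0 at an unadjusted limma p under 0.05). The share lower, 12.5%, rests on 1 gene and was near the 9.60% of all genes tested. The gene called was YAT2 (YER024W), a carnitine acetyltransferase gene, at -0.66, -0.49 and -0.68, with a mean of -0.61 ± 0.10 (limma adjusted p = 0.034). YAT2 had no low-power value on any array. Its call ended when any one array was left out (adjusted p = 0.169, 0.0985 and 0.0809 without arrays 1, 2 and 3). The acetaldehyde dehydrogenase genes ALD4 (0.18 ± 0.36), ALD5 (-0.33 ± 0.68) and ALD6 (0.33 ± 0.21) did not pass the test. In the bypass from 2-oxoglutarate to succinate through GABA, UGA1, the transaminase gene, rose to 0.65 ± 0.23 (limma adjusted p = 0.036), with its call lost without array 1 or 2 (adjusted p = 0.205 and 0.136), in the low-power scans (0.0625) and with centred blocks (0.284). GAD1 (-0.23 ± 0.20) and UGA2 (-0.37 ± 0.81) did not pass it.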

How the data were processed

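Each scan has 1 column of deposited log2 ratios between the dyes. The authors used, per the labels, spots without a flag for LOWESS normalization. The base was read from the lowest value, -6.64, which is the logarithm of a ratio of 0.01. Scan medians lay between 0.0186 and 0.0817. Scale and centring are so inferred, and the direction of the ratio stays unstated. The merged value that the labels mention was not used here.

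The platform annotation named 5446 of 6912 spots by 1 gene, 0 by several and 1466 by none, and all 5446 matched RefSeq (R64), used for names alone. Spots of a gene were averaged per scan, then both scans per array. The mean over 3 arrays was tested against 0 with limma 3.58.1 (R 4.3.3, lmFit, eBayes, Benjamini-Hochberg over 4312 genes, threshold 0.05), after the procedure was tested on simulated data. The labels give no paired groups. Members and lists were chosen with earlier results of these data known. All 38 genes are named, with every neighbouring gene past the threshold; other neighbours were chosen after their values were seen. Alternatives were other scans, filters, centrings, thresholds, a robust fit and each array left out. Figures used matplotlib 3.10.9.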

Additional observations from a re-analysis of the deposited data

How the results depend on the processing

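Of the 12 genes called lower, CIT2, ACO1, ACH1 and KGD1 kept their call and sign under every alternative in which they could be tested, and none of the 12 changed sign under any. With the low-power scans alone, 77 of all genes were lower and 74 higher and 4 of the listed genes were lower. With both scans required on every array the counts were 182, 175 and 5, and 1 listed gene (LAT1) was higher. Against 1.5-fold they were 77, 65 and 4, and at an adjusted p under 0.01 they were 163, 132 and 7. Leaving out 1 array gave 176 to 337 lower and 132 to 297 higher genes among all, and 6 to 11 lower listed genes. The first 2 settings test fewer genes and the thresholds are stricter by construction; fewer arrays give less power.

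The median of the aconitase and lipoate group ran from -0.74 to -0.35 with 1 array left out. That of the remaining TCA steps ran from -0.5 to -0.18, and was -0.3 in the high-power scans, -0.23 with genes on 2 arrays, -0.27 with both scans required and -0.21 with centred blocks of 36 spots. Block centring was added after the data were seen, with blocks read from spot numbers. The glyoxylate and acetate median ran from -0.53 to -0.16 with 1 array left out and was -0.9 in the low-power scans and -0.94 with both scans required, where few members remain, and the retrograde median, -0.55 over the 2 tested genes, was -0.16 with genes on 2 arrays. Among the 38 genes, signs turned in ones that did not pass the test: PDB1 without array 1 (0.16, and from -0.74 over the arrays left out), IDP1 in the high-power scans (0.065), with centred blocks (0.061) and without array 2 (0.12, and from -0.19), FUM1 in the high-power scans (-0.03) and ICL1 without array 2 (0.11, and from -0.19). Beyond fewer genes or arrays, the cause was not tested. How far the spots stood above background is not known.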
